A study of Mus musculus with 15 samples.

Results

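The transcriptomes of mouse bone marrow monocytes given RANKL were compared with those of monocytes kept in M-CSF without it, across every gene of one deposited table. The members are 6 of the 15 RNA sequencing samples of the series, 3 libraries labelled SC and 3 labelled SCR. Marrow cells came from C57BL/6J mice, and non-adherent cells were plated at 20000 cells per well in 48-well plates. They were kept in α-MEM with 10% fetal bovine serum and M-CSF at 50 ng/ml for 2 days. The SCR wells then had RANKL at 50 ng/ml together with M-CSF at 50 ng/ml for 3 days, and the SC wells had M-CSF and no RANKL. Both groups had vehicle and neither had pterosin B, the compound given to a further group of that experiment, SCRP. The labels do not give the length of the SC culture beyond its first 2 days, so time in culture and RANKL cannot be told apart where they differ. Age and sex of the mice, and whether the 3 libraries of a group came from separate animals or cultures, are not given, so p-values rest on a spread among libraries that may be technical. In bulk RNA, fewer cells of a type and less RNA per cell cannot be told apart.

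RANKL is a cytokine of the tumour necrosis factor family, and its receptor RANK is carried by cells of the monocyte lineage. RANK recruits TRAF adaptors and activates NF-kB and AP-1, and with co-stimulation through ITAM receptors it raises NFATc1, the transcription factor on which osteoclast formation depends. The resulting osteoclasts are large cells made by fusion of precursors. They attach to bone by a ring of actin-rich podosomes, pump acid into the space beneath them and release proteases that digest the collagen matrix. M-CSF alone keeps the same precursors alive as macrophages, cells that engulf debris and respond to microbes.

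Per library, 40152624 to 48431715 reads in SC and 37138648 to 49610156 in SCR fell on genes of the table, and 92.2% to 92.8% of them mapped uniquely. Values are given as CPM, the reads of a gene per 1000000 reads of its library after scaling with TMM factors. The first principal component of log2 CPM held 77.4% of the variance and separated the groups. Pearson's r of log2 CPM across tested genes, which are not independent replicates, was 0.983 to 0.987 between libraries of a group and 0.922 to 0.928 between groups. Each sample is labelled as bone marrow monocytes, while the design text of the series speaks of embryonic livers. The label was checked against 12 defining genes of monocytes and macrophages, which do not tell marrow from liver as the source. In SC, Lyz2 (lysozyme) stood at 18957, 16912 and 16500.3 CPM and Csf1r (the M-CSF receptor) at 2103, 2119 and 1931 CPM. Adgre1, which encodes F4/80, stood at 979.5, 936 and 974 CPM. All 12 were read in every library of both groups. All 12 fell in SCR without overlap, beside 28.4% of all genes tested that passed lower and 65.4% that did not overlap. The summed level of the 12 genes was 23139 to 25559 CPM in SC and 7865 to 9099 CPM in SCR. In SCR they remained present at lower levels, with Lyz2 at 4978, 6005 and 5688 CPM, Csf1r at 1004, 1051 and 999.9 CPM and Adgre1 at 421, 474 and 469.8 CPM. Whether these SCR reads came from remaining macrophages or from osteoclasts that still carried the transcripts cannot be told apart.

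RANKL was accompanied by a change in most expressed genes. Of 13650 genes tested, 8064 (59.1%) passed an adjusted p under 0.05, 4190 higher in SCR (30.7%) and 3874 lower (28.4%). These calls come from edgeR's quasi-likelihood test with Benjamini-Hochberg adjustment over all genes tested. With at least a 2-fold change as well, 2333 genes (17.1%) passed, 1127 higher (8.26%) and 1206 lower (8.84%). The SC and SCR libraries did not overlap for 8928 genes (65.4%). The median log2 fold change was 0.02, and the quartiles were -0.41 and 0.38. The share passing rose with the level of the gene, from 21.5% of 2199 genes averaging under 1 CPM to 81.9% of 2340 genes over 100 CPM. Among long intergenic RNAs, 62 rose and 55 fell of 431 tested.

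Which direction held more genes depended on the size of the change. Among genes with at least 5 CPM in the higher group, 612 passed at 2-fold or more higher and 845 lower. At 4-fold or more these counts were 254 and 196, and at 8-fold or more 152 and 50. At 32-fold or more, 81 genes were higher and 2 lower, namely Fcrls and Slco2b1. At 256-fold or more the counts were 22 and 0. Without a minimum level, the order at 2-fold or more, 1127 higher and 1206 lower, turned with any 1 SC library left out, to 1172 and 1147 without SC_1, 1155 and 1141 without SC_2 and 1172 and 1144 without SC_3. It also turned, to 770 and 708, in edgeR's test against 2-fold itself, and to 1253 and 1250 without a filter on low counts. In the counts by minimum fold, genes without a read in SC were placed at the lower bound of their fold, from a floor of 3 counts per library. Genes with few SC reads, among them 9 with only 2 reads over SC, kept their fitted folds there. The counts at the largest minimum folds therefore rest partly on folds that so few reads do not fix. Slco2b1, an organic anion transporter gene singled out here for its fold after values were seen, stood at 10.9, 11.9 and 15.2 CPM in SC and at 0, 0.0528 and 0.198 CPM in SCR.

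**Figure D1:**
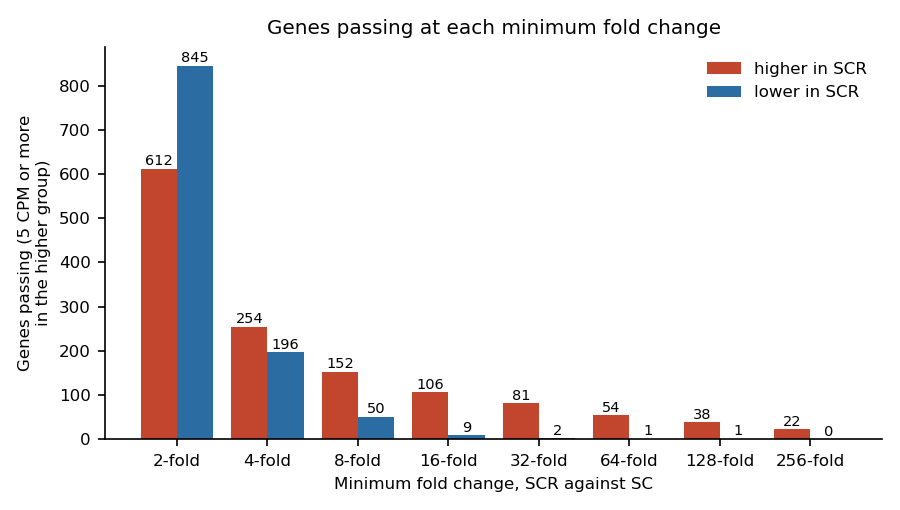
Number of genes that passed at each minimum fold change among genes with at least 5 CPM in the higher group, with red bars for genes higher in SCR and blue bars for genes lower in SCR. From 2-fold to 256-fold the higher count goes from 612 to 22 and the lower count from 845 to 0, and the order of the bars changes between 2-fold and 4-fold.

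**Figure D2:**
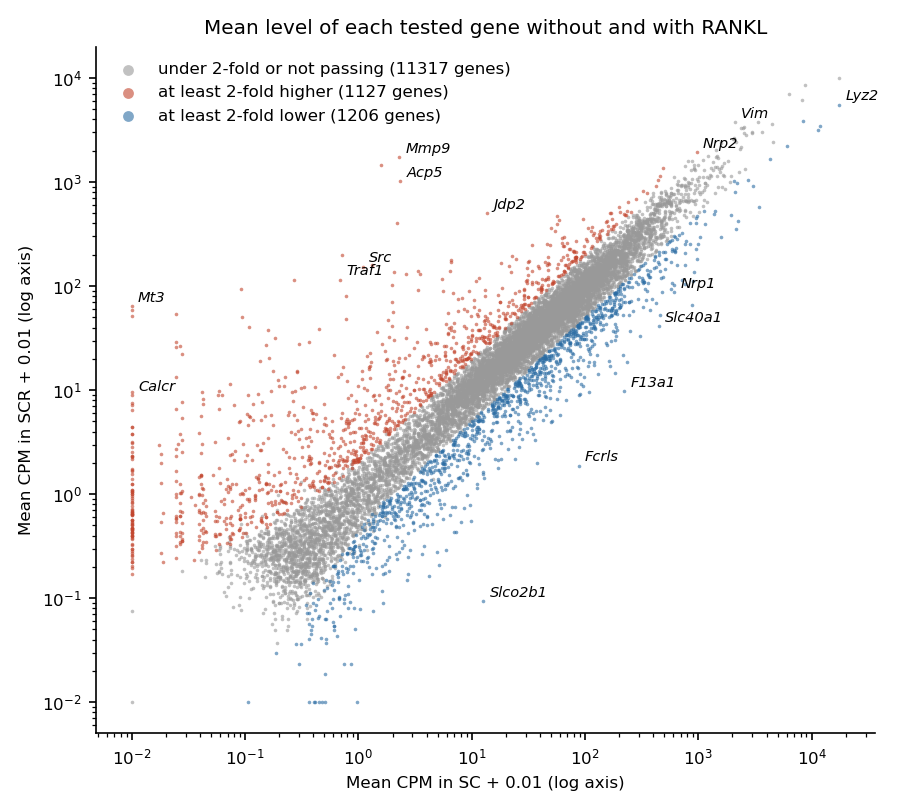
Mean CPM in SCR against mean CPM in SC for each of the 13650 tested genes, with 0.01 CPM added and both axes logarithmic. Red points are the 1127 genes at least 2-fold higher in SCR, blue points the 1206 at least 2-fold lower and grey points the rest, and the column of red points at the left edge is made of genes without a read in SC.

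Ctsk, Mmp9 and Acp5, which encode effectors of bone resorption, went from a few CPM to over 1000 CPM. Ctsk, which encodes cathepsin K, the protease that cuts bone collagen (ENSMUSG00000028111, GRCm38 chromosome 3, 95499256 to 95509362), stood at 1.16, 2.23 and 1.31 CPM in SC and at 1494, 1474 and 1412 CPM in SCR. The log2 fold change was 9.89 ± 0.16 (SE; edgeR adjusted p = 5.32e-17). The gelatinase gene Mmp9 (ENSMUSG00000017737, chromosome 2, 164940780 to 164955850) stood at 1.80, 3.46 and 1.63 CPM in SC and at 1801, 1614 and 1771 CPM in SCR. It rose 764-fold (log2 fold change 9.58 ± 0.18, edgeR adjusted p = 2.24e-16). Acp5, the tartrate-resistant acid phosphatase used to stain osteoclasts (ENSMUSG00000001348, chromosome 9, 22126727 to 22135711), stood at 3.22, 1.84 and 1.95 CPM and then at 1035, 1003 and 1017 CPM. In each of these genes the lowest SCR library exceeded the highest SC library by more than the whole range within either group. Membrane-type matrix metalloproteinase gene Mmp14 rose from 5.48 to 118 CPM, 21.5-fold. Most other genes of the group that passed went down. Of 30 tested genes for osteoclast proteases and their inhibitors, 7 rose and 15 fell, beside 30.7% higher and 28.4% lower over all genes tested. The phosphatase gene Acp5 is counted among the 30 and among those that rose at least 2-fold. At 2-fold or more, 5 rose and 11 fell, beside 8.26% and 8.84% over all genes, and the median log2 fold change was -0.65 beside 0.02 over all genes. In the lists that follow, numbers of genes at 2-fold or more are likewise given as part of those that passed. Each count there is to be read beside these same shares over all genes. Urokinase gene Plau fell from 898, 912 and 921 CPM to 122, 148 and 138 CPM (log2 fold change -2.75 ± 0.06, edgeR adjusted p = 3.61e-15). The lysosomal cathepsin genes Ctsb, Ctsd and Ctss fell 3.42-fold, 3.58-fold and 1.68-fold, and the collagenase gene Mmp13 fell from 25.5 to 5.95 CPM.

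**Figure D3:**
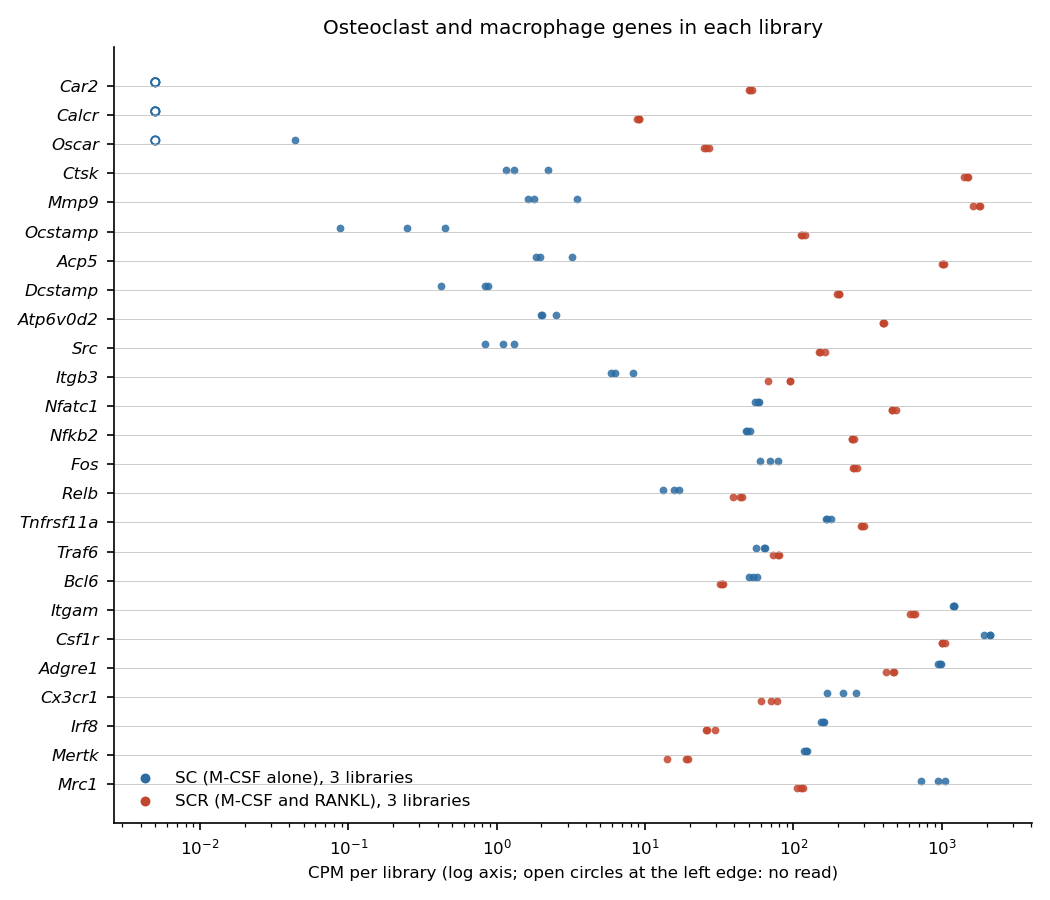
CPM of 25 osteoclast, signalling and macrophage genes in each of the 3 SC libraries (blue) and the 3 SCR libraries (red) on a log axis, in order of their log2 fold change. Open circles at the left mark libraries without a read, and in each of the 25 genes the 2 groups of 3 points do not overlap, beside 65.4% of all genes tested.

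The fusion genes Dcstamp and Ocstamp and the acid secretion gene Car2 also rose steeply. Dcstamp, which encodes the fusion receptor DC-STAMP (ENSMUSG00000022303, chromosome 15, 39745930 to 39760938), stood at 0.876, 0.420 and 0.839 CPM in SC and at 202, 202 and 195 CPM in SCR. Its partner Ocstamp stood at 0.0876, 0.446 and 0.247 CPM and at 119.5, 113 and 114 CPM, so that every SCR library lay above every SC library for both (edgeR adjusted p = 1.25e-16 and 1.23e-15). Car2, the carbonic anhydrase that supplies protons (ENSMUSG00000027562, chromosome 3, 14886273 to 14900770), had no read in the 3 SC libraries and stood at 52.2, 50.3 and 50.7 CPM in SCR, at least 701-fold higher by a floor of 3 counts per SC library. Low counts were mostly even, and if both mates of each fragment were counted, 3 fragments are 6 counts and that bound is 351-fold. The calcitonin receptor gene Calcr had no SC read either and reached 9.07, 9.08 and 8.79 CPM, at least 123-fold higher. All 12 genes taken as markers of mature osteoclasts rose, each at least 2-fold, beside 8.26% of all genes tested. The median log2 fold change of the 12 was 8.42 with Car2 and Calcr placed at their lower bounds, or 8.28 with bounds from 3 fragments.

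Genes without any read in SC that became well expressed were few. In all, 8 genes averaged at least 5 CPM in SCR, among 1595 genes with reads in SCR and none in SC. Of the 1256 genes with reads in SC and none in SCR, none averaged that much in SC. Mt3, a metallothionein gene better known from brain (ENSMUSG00000031760, chromosome 8, 94152607 to 94154146), stood at 71.7, 62.5 and 58.1 CPM in SCR, at least 880.5-fold higher. Rufy4, which encodes a RUN and FYVE domain protein of autophagosome and lysosome traffic (ENSMUSG00000061815, chromosome 1, 74125541 to 74148223), stood at 55.5, 60.7 and 59.4 CPM, at least 804-fold higher. Siglec15, a sialic acid receptor that pairs with the ITAM adaptor DAP12, reached 8.93, 9.06 and 10.5 CPM, at least 131-fold higher. The remaining genes were Car2, Calcr, the lipid receptor gene Gpr55, the metalloreductase gene Steap4 and the semaphorin gene Sema3d, with lower bounds of 89.0 to 701. With a floor of 3 fragments, the lower bounds of the 8 genes are 440.2 for Mt3, 402 for Rufy4, 65.3 for Siglec15, 61.7 for Calcr and 44.5 to 351 for the others. A further 9 genes of at least 5 CPM in SCR had only 2 reads each in SC, summed over its libraries, and no fold is given for them. Among them, the ITAM receptor gene Oscar reached 25.9, 24.9 and 27.0 CPM, Mst1r, the receptor of macrophage-stimulating protein, 54.4, 56.9 and 51.3 CPM, and the costimulatory receptor gene Tnfrsf9 14.1, 14.1 and 11.6 CPM.

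Along the signalling pathway itself, the genes of the receptor and its proximal adaptor rose by less than 2-fold, while Traf1, Birc3 and Nfkb2 rose over 5-fold. Tnfsf11, the gene of RANKL itself, had no read in any of the 6 libraries, and 3 counts in the shallowest of them would be 0.0792 CPM. Of 29 tested genes for RANK and NF-kB signalling, 21 rose and 3 fell, 9 of them at least 2-fold higher and 0 lower, with a median log2 fold change of 0.60 beside 0.02 over all genes. Tnfrsf11a, which encodes RANK, stood at 179.7, 168 and 167 CPM in SC and at 299, 288 and 286 CPM in SCR (log2 fold change 0.76 ± 0.05, edgeR adjusted p = 5.62e-10). Traf6, the adaptor on which RANK signalling depends, rose from 55.9, 62.9 and 63.9 CPM to 79.3, 78.1 and 72.8 CPM (log2 fold change 0.33 ± 0.06). The groups did not overlap for either gene, and both differences were under 2-fold. Traf1, an adaptor gene that NF-kB itself induces, stood at 0.767, 0.629 and 0.642 CPM in SC and at 123, 109 and 114 CPM in SCR (log2 fold change 7.40 ± 0.10, edgeR adjusted p = 1.13e-17). Nfkb2 and Relb encode the DNA-binding pair of the noncanonical arm. Nfkb2 rose from 51.2, 48.5 and 47.7 CPM to 255, 246 and 247 CPM, 5.08-fold, and Relb from 15.6, 16.8 and 13.2 CPM to 45.3, 39.1 and 43.5 CPM, 2.81-fold. The canonical subunit genes differed less. Nfkb1 rose 1.22-fold, and Rela had 79.5, 78.4 and 79.8 CPM in SC and 75.2, 70.3 and 74.1 CPM in SCR and did not pass (edgeR adjusted p = 0.0769). The inhibitor of apoptosis gene Birc3 rose 6.17-fold and the NF-kB inhibitor gene Nfkbie 3.61-fold. Traf3, which holds the noncanonical arm in check, rose 2.10-fold. The 3 genes that fell were Map3k8, Gab2 and Ikbkb, with log2 fold changes of -0.64, -0.45 and -0.27.

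The AP-1, NFAT and MITF families were divided between members. Of 23 tested genes, 10 rose and 6 fell, beside 30.7% higher and 28.4% lower over all genes tested. At 2-fold or more, 6 rose and 3 fell, beside 8.26% and 8.84% over all genes, and the median log2 fold change was 0.10. Jdp2, an AP-1 partner required for mouse osteoclast formation (ENSMUSG00000034271, chromosome 12, 85599027 to 85639878), stood at 12.9, 13.9 and 13.9 CPM in SC and at 559, 471 and 483 CPM in SCR. Its log2 fold change was 5.22 ± 0.10 (edgeR adjusted p = 3.91e-16), beside 3.04 ± 0.06 for Nfatc1. The latter stood at 54.8, 57.6 and 58.7 CPM in SC and at 488, 462 and 459.7 CPM in SCR. The Fos-family genes Fosl2 and Fos rose 7.30-fold and 3.74-fold. Mitf, a lysosome and osteoclast regulator, rose from 80.3, 82.4 and 84.1 CPM to 147, 146 and 134 CPM (log2 fold change 0.79 ± 0.05). Among the members that fell was Atf3, a stress-induced factor (173, 192 and 161 CPM to 40.1, 32.6 and 37.3 CPM, log2 fold change -2.26 ± 0.08). Nfatc2, Tfe3 and Jun fell by less than 2-fold, with log2 fold changes of -0.64, -0.44 and -0.38. The rest of those that fell are not named here.

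Transcription factors of the macrophage programme, and repressors that RANKL signalling is known to override, mostly fell. Of 41 genes tested, 27 fell and 7 rose, 11 and 3 of them at least 2-fold, with a median log2 fold change of -0.70. Maf stood at 553, 565 and 612 CPM in SC and at 86.7, 102 and 92.7 CPM in SCR (log2 fold change -2.62 ± 0.07, edgeR adjusted p = 3.11e-14). Id1, an inhibitor of helix-loop-helix factors, fell from 146, 130 and 114 CPM to 13.7, 14.9 and 14.3 CPM, and Klf2 from 77.6, 68.5 and 69.5 CPM to 12, 15.8 and 14.5 CPM. The interferon regulatory factor gene Irf8 fell 5.80-fold and Bcl6 1.62-fold. Prdm1 encodes Blimp1, which represses Irf8 and Bcl6 in mouse precursors. It rose from 11.3, 14.4 and 9.06 CPM to 125, 111 and 121 CPM (log2 fold change 3.36 ± 0.13, edgeR adjusted p = 1.43e-12). Of the named factors, Nr1h3, Klf4 and Egr1 also rose, by log2 fold changes of 1.35, 0.99 and 0.97.

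Promoter letters were read beside these families, since AP-1, NFAT, NF-kB and MITF act by binding DNA near their targets. RefSeq promoters on GRCm38.p6, from 250 bases before to 50 after the gene start, were found for 10314 of the 13650 tested genes, and the 8245 genes with 1 promoter were searched on both strands. The AP-1 letters TGANTCA stood in 4.92% of all 8245, in 53 of 617 promoters of genes at least 2-fold higher (8.59%) and in 55 of 679 of genes at least 2-fold lower (8.1%). The NFAT core GGAAA stood in 59.4%, 57.4% and 60.5% of these sets, the kappa B motif in 1.7%, 2.92% and 1.91%, and the MITF letters TCANGTG in 12.9%, 12.3% and 14.1%. The PU.1 letters GAGGAAGT stood in 3.49%, 3.4% and 5.01%, the interferon response motif in 3.29%, 2.59% and 5.3%, and the E-box core CACGTG in 10.4%, 8.43% and 7.95%. The kappa B motif, searched in one consensus form, contains the NFAT core on the other strand, and the MITF letters contain the E-box core where N is C. AP-1 letters were thus more frequent than over all promoters in both directions of change, which is a description of 300-base windows without a test. Median G and C content was 60.7% over all promoters, 60.7% for higher genes and 58.7% for lower genes.

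The promoters of 3 genes are printed whole, with AP-1 letters and NFAT cores in capitals and all other bases in lower case, from 5′ to 3′ on the strand of the gene. Ctsk (chr3:95498960-95499259, + strand) had the largest fold among genes read in every library of both groups with at least 50 CPM. Rufy4 (chr1:74125291-74125590, + strand) had no SC read, and Fcrls (chr3:87263475-87263774, - strand) had the largest fall among genes of at least 50 CPM. Rufy4 held 1 AP-1 match, 41 bases before the start, and 3 NFAT cores, Ctsk 1 NFAT core and Fcrls 2.
Ctsk: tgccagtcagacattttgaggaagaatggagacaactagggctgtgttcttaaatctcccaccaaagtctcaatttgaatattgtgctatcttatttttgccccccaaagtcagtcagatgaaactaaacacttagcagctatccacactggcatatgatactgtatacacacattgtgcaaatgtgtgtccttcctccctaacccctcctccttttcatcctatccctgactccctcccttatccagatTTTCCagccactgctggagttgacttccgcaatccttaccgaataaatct
Rufy4: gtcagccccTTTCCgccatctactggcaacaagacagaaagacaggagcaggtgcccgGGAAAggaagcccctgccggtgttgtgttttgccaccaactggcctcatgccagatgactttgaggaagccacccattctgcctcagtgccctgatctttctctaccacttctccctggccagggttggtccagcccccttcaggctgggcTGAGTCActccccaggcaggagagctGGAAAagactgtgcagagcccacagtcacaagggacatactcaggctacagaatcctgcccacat
Fcrls: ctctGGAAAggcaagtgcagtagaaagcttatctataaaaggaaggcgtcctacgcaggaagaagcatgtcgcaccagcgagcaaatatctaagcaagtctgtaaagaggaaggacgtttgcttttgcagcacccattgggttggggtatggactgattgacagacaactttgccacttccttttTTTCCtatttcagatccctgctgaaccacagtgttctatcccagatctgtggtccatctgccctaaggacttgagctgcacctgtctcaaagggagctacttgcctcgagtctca

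AP-1 letters occurred in 6 of 55 searched promoters of genes at least 16-fold higher with 5 CPM or more (10.9%), and in 2 of 26 of genes at least 8-fold lower (7.69%). Beside Rufy4, the higher genes were Sucnr1 (a succinate receptor gene), Lif (a cytokine gene), F2r (a thrombin receptor gene), Diras2 (a small GTPase gene) and Met (the hepatocyte growth factor receptor gene). The lower genes were Ctla2b and Bcl2a1b. The matches lay 159, 228, 204, 112, 54, 143 and 164 bases before the start in that order. The windows are chr3:60081698-60081728, chr11:4257328-4257358, chr13:95618652-95618682, chr13:52530930-52530960, chr6:17463891-17463921, chr13:60897572-60897602 and chr9:89199097-89199127 on GRCm38.p6. They are shown with the match in capitals and 12 bases on each side, so that the letters can be compared between genes that rose and genes that fell.
Sucnr1: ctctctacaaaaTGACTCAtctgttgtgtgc
Lif: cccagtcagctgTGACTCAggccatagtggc
F2r: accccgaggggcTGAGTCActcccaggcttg
Diras2: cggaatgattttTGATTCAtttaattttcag
Met: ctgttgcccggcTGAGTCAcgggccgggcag
Ctla2b: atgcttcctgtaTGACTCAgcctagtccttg
Bcl2a1b: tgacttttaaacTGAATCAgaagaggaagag
The same letters with different flanks thus stood before genes that rose and genes that fell. Lif went from 0.0321 to 9.63 CPM, with 4 SC reads in all, and F2r from 0.152 to 20.3 CPM. Met went from 3.36 to 92.6 CPM, 27.5-fold higher. Diras2 and Sucnr1, named here for their promoters after values were seen, averaged 5.68 and 6.58 CPM in SCR.

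Within the proton pump, paired isoform genes changed their proportions. Of 28 tested genes for the pump and acid secretion, 17 rose and 7 fell, 7 and 2 of them at least 2-fold, with a median log2 fold change of 0.38. Levels of different genes are compared on the deposited RPKM scale, which divides reads by exon length. Folds and log2 fold changes come from TMM-scaled counts, so they can differ from ratios of RPKM between groups. The d1 subunit gene Atp6v0d1 stood at 91.2, 85.1 and 91.0 RPKM in SC and at 82.4, 84.9 and 82.4 RPKM in SCR. The d2 subunit gene Atp6v0d2, which is needed for precursor fusion in mice, stood at 0.641, 0.803 and 0.642 RPKM and at 138, 138 and 140 RPKM. Its share of the RPKM of the pair went from 0.774% to 62.4%, while the d1 gene itself fell 1.14-fold. The a-subunit genes moved apart. Tcirg1, which encodes the a3 subunit of the osteoclast plasma membrane, rose from 81.0, 76.4 and 68.8 RPKM to 151, 148 and 147 RPKM. Atp6v0a1 fell from 42.7, 45.6 and 45.9 RPKM to 12.6, 13.9 and 13.3 RPKM (log2 fold changes 0.88 ± 0.06 and -1.85 ± 0.07, edgeR adjusted p = 1.34e-09 and 1.31e-12). The chloride-bicarbonate exchanger gene Slc4a2 rose 2.71-fold. Snx10, a sorting nexin gene mutated in human osteopetrosis, rose 2.80-fold, and the membrane ring subunit gene Atp6v0c 1.98-fold. Rab3d and Plekhm1, genes of vesicle traffic to the resorbing membrane, fell 2.24-fold and 1.36-fold.

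In several other pairs, a gene that rose steeply stood beside a relative that changed less. Ctsk went from 0.663, 1.28 and 0.755 RPKM in SC to 915, 902 and 868 RPKM in SCR, beside Ctss, a macrophage cathepsin gene, at 789, 695 and 665 and 426, 481 and 462 RPKM. The lysosomal acid phosphatase gene Acp2 stood at 28.9, 29.0 and 27.8 RPKM and at 22.3, 24.2 and 25.4 RPKM, while Acp5 went from 1.37, 0.783 and 0.838 RPKM to 472, 457 and 466 RPKM. The noncanonical subunit gene Nfkb2 and the canonical Nfkb1 had close levels in SC, 9.65, 9.17 and 9.08 and 9.19, 8.83 and 9.49 RPKM, and in SCR stood at 51.6, 49.7 and 50.1 and 12.5, 11.7 and 11.6 RPKM. Nfatc1 made up 45.7% of the summed RPKM of Nfatc1 and Nfatc2 in SC and 91.5% in SCR. Mt1, the common metallothionein gene, stood at 102, 105 and 111 RPKM and at 147, 141 and 138 RPKM, while Mt3 reached 62.3, 54.3 and 50.7 RPKM. Not every pair changed its order. Itgb3 rose 12.5-fold, to 10.5, 14.8 and 14.9 RPKM and remained below Itgb2, at 196, 208 and 200 RPKM. Slc2a1, the common glucose transporter gene, stood at 29.3, 29.4 and 27.3 RPKM in SC and at 28.6, 30.1 and 29.1 RPKM in SCR, and its groups overlapped in CPM (edgeR adjusted p = 0.282).

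**Figure D4:**
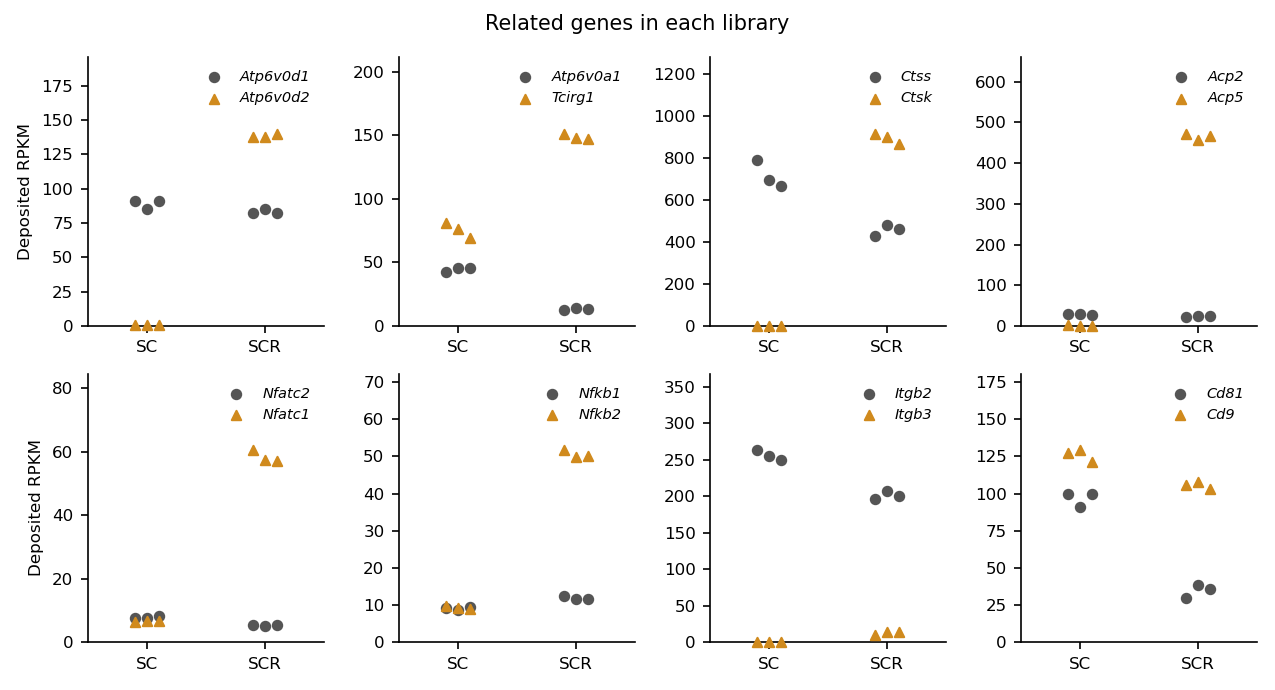
Deposited RPKM of 8 pairs of related genes in each SC and SCR library, with circles for the first gene of a pair, triangles for the second and linear axes that start at 0. Atp6v0d2, Ctsk, Acp5, Nfatc1 and Nfkb2 stand above their partner in all 3 SCR libraries, Itgb3 stays below Itgb2, and Cd81 falls farther than Cd9.

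Integrin genes moved in both directions. Of 17 tested, 8 rose and 7 fell, 5 and 4 of them at least 2-fold. Itgav and Itgb3 encode the vitronectin receptor by which osteoclasts hold bone. Itgav rose from 356, 352 and 312 CPM to 632, 674 and 636 CPM and Itgb3 from 8.28, 6.27 and 5.85 CPM to 67.1, 94.6 and 94.7 CPM (edgeR adjusted p = 6.66e-11 and 3.33e-12). Itgb5, the alternative partner of Itgav, fell from 333, 289 and 255 CPM to 66.9, 86.1 and 73.7 CPM (log2 fold change -1.95 ± 0.10), and no library of one group entered the range of the other for any of the 3 genes. Itga2, a collagen receptor chain, had only 6 reads in the whole of SC and stood in SCR at 8.35, 8.74 and 9.58 CPM. Leukocyte integrin gene Itgal fell from 386, 352 and 289 CPM to 67.5, 81.5 and 72.3 CPM, and Itga6 and Itga9 fell 2.13-fold and 5.16-fold.

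Genes of podosomes and the sealing zone fell more often than they rose, with a few large rises. Of 32 tested, 19 fell and 9 rose, 3 and 4 of them at least 2-fold, with a median log2 fold change of -0.22. Src, the kinase without which mouse osteoclasts form no ruffled border (ENSMUSG00000027646, chromosome 2, 157418444 to 157471862), stood at 1.31, 1.10 and 0.839 CPM in SC and at 162, 152 and 148 CPM in SCR. Its log2 fold change was 7.13 ± 0.13 (edgeR adjusted p = 1.89e-16). Cttn, whose product cortactin is a Src substrate in podosomes, rose from 1.45, 1.36 and 1.01 CPM to 20.7, 20.6 and 15.1 CPM. Dock5, a Rac activator needed for bone resorption in mice, rose from 58.7, 57.6 and 53.1 CPM to 409, 386 and 383 CPM, and vinculin gene Vcl 2.77-fold. Evl, Bin1 and Vav3 fell 2.71-fold, 2.42-fold and 2.03-fold. Scin, which encodes the actin-severing protein scinderin, belongs to no list and was among the 15 largest rises. It stood at 0.0876, 0.157 and 0 CPM in SC and at 94.8, 87.8 and 99.4 CPM in SCR.

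Among 23 tested genes for cell fusion, 10 rose and 11 fell, 6 in each direction at least 2-fold, with a median log2 fold change of -0.23. Beside Dcstamp and Ocstamp, the tetraspanin gene Tspan7, with 6 SC reads, reached 4.65, 8.71 and 6.58 CPM. Cd81 and Cd9 encode tetraspanins that restrain macrophage fusion in mice. Cd81 fell from 334, 302 and 330.4 CPM to 92.9, 119 and 111 CPM (log2 fold change -1.58 ± 0.07) and Cd9 from 299.7, 306 and 284 CPM to 235, 239 and 225 CPM (-0.35 ± 0.05). Of the 21 tetraspanin genes tested, 10 fell and 6 rose, and Cd82, the metastasis suppressor gene, rose 2.97-fold. Ccl2, a chemokine that promotes fusion, fell 5.22-fold, and the metalloprotease gene Adam8 2.61-fold.

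In the list of ITAM receptors and kinases more genes fell than rose, although Oscar and Siglec15 appeared. The list also holds inhibitory receptor genes, Pirb among them, so its counts do not stand for co-stimulation alone. Of 22 tested, 14 fell and 5 rose, 8 and 2 of them at least 2-fold. The shared adaptor gene Fcer1g fell from 609.8, 590 and 573 CPM to 213, 212 and 223 CPM (log2 fold change -1.45 ± 0.05). Trem1, an amplifier of inflammation, fell from 29.5, 29.3 and 20.1 CPM to 3.05, 2.85 and 2.65 CPM. The kinase gene Syk rose 1.25-fold, from 253, 254 and 257 CPM to 328, 315 and 309.7 CPM, and the paired receptor gene Pirb 1.20-fold.

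Among genes of cytokine and growth factor receptors, more fell than rose. Of 34 tested, 20 fell and 9 rose, 7 and 6 of them at least 2-fold. Met rose from 3.33, 3.25 and 3.50 CPM to 90.7, 91.4 and 95.8 CPM and Fgfr1, a fibroblast growth factor receptor gene, from 2.32, 1.42 and 2.32 CPM to 60.5, 56.4 and 50.8 CPM, with no overlap of the groups (edgeR adjusted p = 3.30e-17 and 7.14e-14). The M-CSF receptor gene Csf1r fell 2.02-fold. The receptor genes of interleukin 17, Il17ra, and interleukin 4, Il4ra, fell 5.07-fold and 3.17-fold. Csf3r and Lifr, receptor genes for G-CSF and LIF, fell from 12.5 to 2.69 CPM and from 9.25 to 2.42 CPM, respectively.

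Receptors that couple to G proteins fell in most cases. Of 43 tested, 25 fell and 11 rose, 20 and 9 of them at least 2-fold, with a median log2 fold change of -0.94. The sphingosine 1-phosphate receptor gene S1pr1, which guides precursors between blood and bone in mice, fell from 42.5, 44.7 and 42.5 CPM to 8.18, 11.9 and 8.89 CPM. The fractalkine receptor gene Cx3cr1 fell from 265, 217 and 168 CPM to 60.3, 77.9 and 71.0 CPM, with SC libraries that spread more widely than those of SCR. The thrombin receptor gene F2r rose from 0.175, 0.157 and 0.123 CPM to 19.1, 21.4 and 20.4 CPM (log2 fold change 7.03 ± 0.24, edgeR adjusted p = 2.72e-13). The acid-sensing receptor gene Gpr65 fell from 44.7 to 6.86 CPM.

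Most receptor genes by which macrophages take up cells, lipoproteins and antibody-coated particles fell. Of 39 tested scavenger, lectin and phagocytic receptor genes, 31 fell and 3 rose, 24 and 1 of them at least 2-fold, with a median log2 fold change of -1.24. Mertk and its ligand Gas6 mediate uptake of dying cells. Mertk fell from 122, 123 and 118 CPM to 14.1, 19.6 and 18.7 CPM and Gas6 from 880, 898 and 875 CPM to 56.4, 72.1 and 66.9 CPM (edgeR adjusted p = 5.21e-13 and 3.17e-15). Every SCR library lay far below every SC library for both. Fcrls, an Fc receptor-like gene, stood at 90.4, 87.7 and 86.0 CPM in SC and at 1.17, 2.85 and 1.60 CPM in SCR (log2 fold change -5.60 ± 0.17). The sialoadhesin gene Siglec1, the haemoglobin receptor gene Cd163 and the high-affinity Fc receptor gene Fcgr1 fell 12.6-fold, 12.5-fold and 8.66-fold. The mannose receptor gene Mrc1 fell from 723, 941 and 1052 CPM to 106, 112 and 115 CPM. The 3 genes that rose were C-type lectin genes, Clec4a2 2.83-fold, Clec4a3 1.84-fold and Clec12a 1.69-fold. In the Ms4a family of membrane proteins, 6 of 8 tested genes fell and 0 rose, among them Ms4a6b, Ms4a6c, Ms4a6d and Ms4a14 with log2 fold changes from -1.70 for Ms4a6b to -1.49 for Ms4a6d.

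Interferon-stimulated genes, which hold an antiviral state in macrophages, were lower in SCR in most cases. Of 41 tested, 25 fell and 4 rose, 13 and 2 of them at least 2-fold, with a median log2 fold change of -0.83. Ifi204 stood at 43.4, 39.1 and 39.6 CPM in SC and at 9.68, 9.69 and 14.3 CPM in SCR, and the tetherin gene Bst2 at 151, 142 and 123 CPM and at 45.7, 52.5 and 51.7 CPM. The guanylate-binding protein gene Gbp7 rose from 5.65, 5.09 and 6.49 CPM to 21.5, 19.6 and 22.4 CPM (log2 fold change 1.88 ± 0.11, edgeR adjusted p = 2.90e-10).

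Guidance molecules of the semaphorin, plexin and ephrin families were among the lists with more rises than falls. Of 26 tested, 13 rose and 8 fell, 11 and 4 of them at least 2-fold, with a median log2 fold change of 0.41. Nrp1 and Nrp2 encode neuropilins, co-receptors for semaphorins and vascular endothelial growth factors. Nrp1 fell from 592, 599.7 and 644 CPM to 76.4, 93.7 and 92.0 CPM, and Nrp2 rose from 984, 957 and 953 CPM to 2004, 1908 and 1905 CPM. Their log2 fold changes were -2.81 ± 0.09 and 1.01 ± 0.04 (edgeR adjusted p = 8.01e-14 and 1.55e-12), so the 2 co-receptor genes moved in opposite directions. Plxna4, a plexin gene, stood at 2.83, 2.88 and 2.12 CPM in SC and at 139, 131 and 126 CPM in SCR. Sema7a stood at 0.307, 0.315 and 0.444 CPM and at 31.1, 27.2 and 27.8 CPM, without overlap. The plexin gene Plxnd1 rose 2.90-fold and ephrin B2 gene Efnb2, a signal to osteoblasts in mice, 9.45-fold. Sema4c and Plxnc1 fell 6.98-fold and 4.33-fold.

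Among genes of secreted ligands, more fell than rose. Of 44 tested ligand genes, 23 fell and 12 rose, 18 and 10 of them at least 2-fold, with a median log2 fold change of -0.90. The chemokine genes Ccl7, Ccl6 and Ccl4 fell 9.20-fold, 9.71-fold and 10.3-fold. Ccl7, an attractant of monocytes, stood at 272, 324 and 322 CPM in SC and at 28.3, 35.6 and 36.0 CPM in SCR. The lymphatic growth factor gene Vegfc stood at 0.219, 0.210 and 0 CPM in SC and at 27.6, 26.5 and 28.2 CPM in SCR (log2 fold change 7.54 ± 0.25, edgeR adjusted p = 1.92e-13). Pdgfa, a platelet-derived growth factor gene, rose from 11.9, 8.57 and 6.10 CPM to 38.8, 42.5 and 37.7 CPM. Sphk1, the kinase that makes sphingosine 1-phosphate and is counted among the 44, had 10 SC reads and reached 4.67, 5.54 and 4.94 CPM.

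Mitochondrial, nucleolar and amino acid genes rose by modest amounts in nearly every member. Of 45 tested genes for the citric acid cycle and respiratory chain, 44 rose and 0 fell, with a median log2 fold change of 0.57. The 3 that rose at least 2-fold were Idh3a, Cyc1 and the coactivator gene Ppargc1b, which the list also holds. Idh3a, a subunit of isocitrate dehydrogenase, rose from 78.0, 85.7 and 87.5 CPM to 187, 196 and 193 CPM, and the cytochrome gene Cyc1 from 86.1, 82.7 and 81.5 CPM to 189, 176 and 176 CPM. Ppargc1b, a coactivator of these genes in mouse osteoclasts, stood at 3.77, 3.12 and 4.96 CPM in SC and at 42.1, 38.6 and 36.5 CPM in SCR (log2 fold change 3.30 ± 0.13). Transcripts of the mitochondrial genome took 2.57% to 2.80% of reads in SC and 3.29% to 3.47% in SCR.

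All 40 tested ribosome biogenesis genes rose, 4 of them at least 2-fold, with a median log2 fold change of 0.72. The snoRNP pseudouridine synthase gene Dkc1 rose from 43.9, 45.3 and 45.5 CPM to 119, 116 and 119 CPM, and the nucleophosmin gene Npm1 from 410.3, 429.7 and 441 CPM to 929, 876 and 931 CPM (edgeR adjusted p = 2.71e-13 and 1.19e-12). The RNA polymerase I subunit gene Polr1b and the nucleolar gene Lyar rose 2.05-fold and 2.01-fold, with groups that did not overlap. Among 38 genes of tRNA charging and amino acid synthesis, 34 rose and 1 fell, 8 and 0 of them at least 2-fold, with a median log2 fold change of 0.65. The asparagine synthetase gene Asns rose from 15.2, 16.8 and 21.5 CPM to 72.1, 67.8 and 72.6 CPM, and the mitochondrial serine hydroxymethyltransferase gene Shmt2 2.38-fold. Chac1, which degrades glutathione, rose from 0.526, 1.05 and 0.494 CPM to 18.3, 10.0 and 14.1 CPM, with SCR libraries that differed among themselves by more than for most genes named here. Atf5, a stress-response factor, was the gene that fell, 1.79-fold.

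Transporter genes moved in both directions. Of 30 genes for amino acid, sugar and lactate transport, 13 rose and 14 fell, 8 in each direction at least 2-fold. The glutamine carrier gene Slc1a5 rose from 66.9, 62.1 and 66.4 CPM to 246, 239 and 242 CPM and the arginine carrier gene Slc7a1 2.22-fold. Slc7a8, an exchanger of neutral amino acids, fell from 1007, 970.1 and 893 CPM to 207, 239.9 and 231 CPM, and Slc15a3, a lysosomal peptide carrier gene, 8.53-fold. Of 36 calcium and ion transport genes, 9 rose and 21 fell, 3 and 9 at least 2-fold. Orai2, a store-operated calcium channel gene, rose 2.60-fold, and Rcan1, a calcineurin regulator that NFAT induces, 2.33-fold. The calcium pump gene Atp2a3 and the exchanger gene Slc8a1 fell 3.81-fold and 2.98-fold.

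The D cyclin genes named here fell steeply, while many genes of replication and mitosis rose by less than 2-fold. Of 19 genes for D cyclins and inhibitors of their kinases, 9 fell and 6 rose. The list also holds genes that are neither, Btg1 and Cdk6 among those that rose. Its counts therefore do not stand for D cyclins and inhibitors alone. Ccnd2, which encodes cyclin D2, stood at 40.7, 36.5 and 36.6 CPM in SC and at 0.849, 3.06 and 1.98 CPM in SCR (log2 fold change -4.31 ± 0.24, edgeR adjusted p = 1.13e-10). Ccnd1, for cyclin D1, stood at 1479.7, 1389 and 1381 CPM and at 495, 558 and 546 CPM. The inhibitor gene Cdkn1a, for p21, fell from 492, 442 and 415 CPM to 152, 177 and 156 CPM, and Cdkn1b, for p27, rose 1.32-fold. Of 40 genes for DNA replication and mitosis, 24 rose and 7 fell, 0 of either at least 2-fold, with a median log2 fold change of 0.17. The spindle checkpoint gene Bub1b rose from 93.1, 93.5 and 101 CPM to 178, 158 and 167 CPM and Cdc20 1.68-fold, while the replication clamp gene Pcna fell from 562, 574 and 579 CPM to 338, 346 and 332 CPM and E2f2 1.92-fold. Of 19 replication-dependent histone genes, 3 rose and 1 fell.

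Named genes of iron export and storage fell, and the iron uptake genes Tfrc and Slc11a2 rose. The haemoglobin receptor gene Cd163, which this list also holds, fell 12.5-fold. Of 23 tested genes for iron, haem and copper handling, 13 fell and 6 rose, 7 and 1 of them at least 2-fold. Slc40a1, which encodes the iron exporter ferroportin, fell from 418, 462 and 466 CPM to 39.8, 43.6 and 39.3 CPM (log2 fold change -3.46 ± 0.07, edgeR adjusted p = 8.16e-16). The haem oxygenase gene Hmox1 fell from 2222, 2145 and 2044 CPM to 339, 376 and 349.7 CPM, and the ferritin heavy chain gene Fth1 2.19-fold. Tfrc, for the transferrin receptor that brings iron in, rose from 427, 464 and 521 CPM to 742, 818 and 774 CPM. The iron importer gene Slc11a2 and the ferritin receptor gene Ncoa4 rose 1.95-fold and 1.68-fold. In lipid and sphingolipid handling, 33 of 48 tested genes fell and 7 rose, 15 and 4 of them at least 2-fold. Apoe fell from 1975, 1579 and 1238 CPM to 259, 367 and 261 CPM and Hpgd, which breaks down prostaglandins, 11-fold, while the phospholipid transfer protein gene Pltp rose 5.07-fold and the cholesterol exporter gene Abcg1 2.46-fold. In vesicle and granule trafficking, 20 of 33 tested genes fell and 8 rose, 7 and 3 of them at least 2-fold. Rab38, a Rab gene of lysosome-related organelles, rose from 0.526, 0.262 and 0.123 CPM to 8.59, 11.5 and 10.9 CPM, while Rab32, its relative, fell from 352, 328 and 302 CPM to 105, 118 and 118 CPM.

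**Figure D5:**
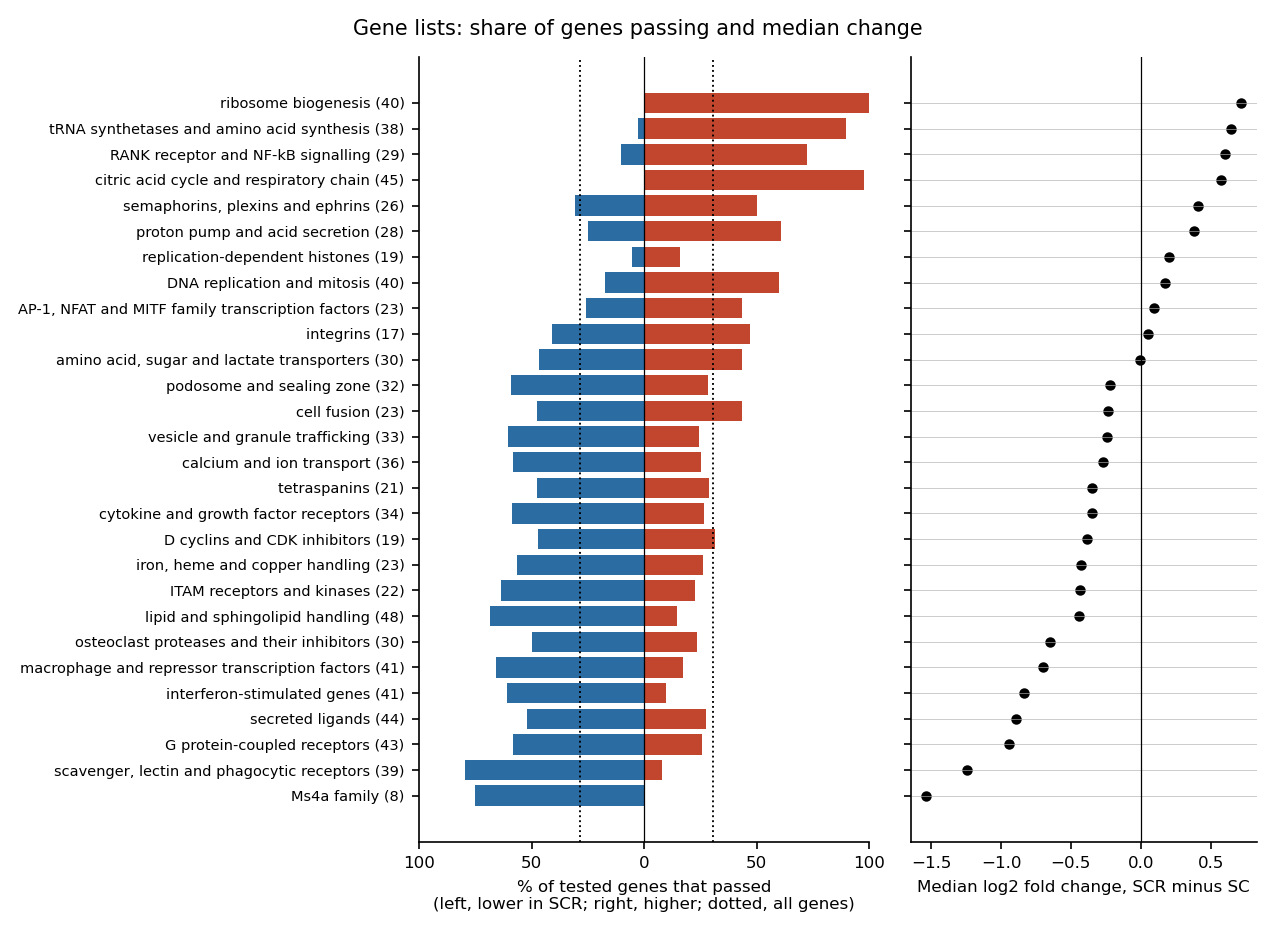
For each of 28 gene lists, with the number of tested genes in brackets, the percent that passed higher (red, right) and lower (blue, left) in SCR, and the median log2 fold change. Dotted lines mark 30.7% higher and 28.4% lower over all genes, and the lists run from Ms4a genes and uptake receptors, mostly lower, to ribosome biogenesis, with every gene higher.

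The most abundant transcripts took a smaller part of the reads in SCR. The 10 most abundant genes of each library took 9.17% to 9.94% of reads in SC and 5.56% to 5.88% in SCR. The 1206 genes at least 2-fold lower, chosen by these same values, held 17% to 17.6% of reads in SC and 5.81% to 6.47% in SCR. The 1127 genes at least 2-fold higher held 1.82% in each SC library and 6.19% to 6.49% in SCR. Lyz2 alone lost most reads, followed by Ctsb, Ctsd and the ferritin genes Ftl1 and Fth1. The largest gains in CPM were Mmp9, Vim, Ctsk, Acp5 and Nrp2. Vim, which encodes the intermediate filament vimentin, went from 2051, 2139 and 2075 CPM to 3909.7, 3687 and 3738 CPM, and Lmna, for the nuclear lamins A and C, from 504, 490.3 and 469.9 CPM to 1466, 1326 and 1342 CPM. Part of the gain in reads therefore came from genes that were already abundant in SC.

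Marker genes of other cell types were low in most cases. Counts of those that rose or fell are to be read beside 30.7% higher and 28.4% lower over all genes tested. The 14 neutrophil genes summed to 109.5 to 125 CPM in SC and 61.6 to 69.5 CPM in SCR, and 6 of 13 tested fell and 1 rose, with a median log2 fold change of -0.82. The collagenase gene Mmp8, which the protease group above also holds, made up most of that sum and fell from 75.4 to 37.6 CPM. The alarmin gene S100a8 stood at 11.6, 8.34 and 4.57 CPM in SC and at 4.51, 3.91 and 3.99 CPM in SCR. SC_1 was the highest library and the lowest SC library, SC_3, lay just above SCR_1. The 10 dendritic cell genes summed to 54.7 to 75.4 CPM in SC and 76.2 to 94.6 CPM in SCR, and 3 of 8 tested rose and 0 fell, Itgax among them at 5.26, 3.46 and 2.39 CPM and 6.83, 8.90 and 8.04 CPM. The 11 lymphoid genes summed to 0.920 to 1.68 CPM in SC and 0.242 to 0.395 CPM in SCR, with Cd3e, Cd3g, Cd8a, Trac, Ighm and Ncr1 at 0 in all 6 libraries. The 10 erythroid and megakaryocyte genes summed to 1.31 to 1.78 CPM in SC and 0.970 to 1.17 CPM in SCR, with the globin genes Hba-a1 and Hbb-bs and the platelet gene Gp9 among those at 0. The 9 mast cell and basophil genes summed to at most 0.485 CPM in a library, with 6 of them at 0. The 14 stromal, osteoblast and endothelial genes summed to 15.4 to 20.5 CPM in SC and 14.7 to 17.3 CPM in SCR, with Bglap, Ibsp and Tnfsf11 at 0. The part of such cells in the changes above was not tested.

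Some of these values rest on reads that cannot be placed uniquely. The unique share of exon reads was 8.91% for Itgam, an integrin gene among the macrophage markers, 16.2% for Gpr65, 35.0% for Ctla2b, 36.8% for Ctsd, 41.7% for Gpr55 and 45.4% for Irf8. It was 53.2% for Tnfrsf9, 53.4% for Ccnd1, 56.0% for Itga9, 58.2% for Ms4a6c and 58.3% for Ccl6. From 62.3% to 87.9% of reads were unique for Acp2, Ftl1, Slc2a1, Maf, Acp5, Ccl2, Jun, Vcl, Bcl2a1b, Ccnd2 and Evl. With unique exon reads alone, 264 of 264 tested genes named by rule kept their direction and their side of the threshold. The counted strand is not stated, so reads cannot be told apart where exons of another annotated gene overlap, as for Nfkb2 with Psd, Slc4a2 with Fastk, Ctsb with Fdft1, Csf1r with Hmgxb3, Pltp with Ctsa, Dkc1 with Mpp1, Vcl with Ap3m1, Cdc20 with Elovl1, Cd81 with R74862, Slc15a3 with Tmem132a, Ccnd1 with LTO1, Acp2 with Ddb2 and Atf5 with Il4i1 and Nup62.

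In the authors' deposited table, 7605 of the tested genes had a false discovery rate under 0.05, 3936 higher and 3669 lower in SCR. Of the 7605 genes so listed in the authors' deposited table, 7451 also passed the test used here, and 0 passed in the other direction. Both rest on the same reads, so they compare methods and not experiments.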

How the data were processed

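RNA of 6 libraries, 3 SC and 3 SCR, was depleted of ribosomal RNA and sequenced as directional libraries from 500 ng of total RNA, per the labels' protocols. The authors deposited counts, which are whole numbers of exon reads for each gene, per the file headers. The authors' RPKM values, per the file headers, divide these by gene exon length and by library size. The authors' comparison table gives a deposited fold score and corrected p-values, per the file headers. Other deposited values used are exon lengths and unique exon reads, per the file headers. The submitters' processing notes name GRCm38 (mm10) as the build, while for the aligner, the counter and the strand the sources used here give no name. From 75.3% to 79.0% of counts between 1 and 39 were even in each of the 9 libraries fitted below, a pattern that counting both mates of each fragment would give.

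All 41819 genes were found in GENCODE mouse release 21, from which gene coordinates were taken, and 21653 had no read in the 9 libraries. Counts of the 9 libraries SC, SCR and SCRP, which share 1 table, were filtered (filterByExpr), TMM-scaled and fitted by quasi-likelihood in edgeR 4.0.16 under R 4.3.3 (13650 genes, 6 residual degrees of freedom, common dispersion 0.0072). The two-sided contrast SCR minus SC was adjusted with the Benjamini-Hochberg method, with 0.05 as the threshold for passing. On counts simulated for SCR against SC (13028 genes), edgeR recovered 80% of genes changed 1.5-fold, 88% at 2-fold and 100% at 4-fold and 8-fold, and 5.15% of its calls were false. DESeq2 recovered 86%, 96%, 100% and 100%, with 15.9% of calls false. Whether these shares hold for the calls made on the deposited counts was not tested. A fold against a group without a read is a lower bound from a floor of 3 counts per library, and floors cover counting error only. Alternatives were DESeq2 1.42.0, RLE scaling, no filter, unique reads, SC and SCR alone, a replicate block, a test against 2-fold (glmTreat), each library left out and, chosen after seeing the data, halved counts and a floor of 3 fragments. Overlapping exons were found with bedtools 2.31.1, promoters are those of RefSeq on GRCm38.p6, and Python 3.11.15, pandas 2.3.3, numpy 2.4.6 and matplotlib 3.10.9 were used.

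Genes, lists (36, with 1055 entries) and pairs (24) were chosen with earlier results of these data known. Genes named are 26 osteoclast, signalling and macrophage genes, up to 4 largest rises and 4 largest falls per list that passed with at least 5 CPM in the higher group, the 15 largest changes each way with at least 50 CPM, the 12 largest gains and losses in CPM, up to 10 genes without a read in the other group, and the pairs. Slco2b1, Diras2 and Sucnr1 were added after their values were seen, and marker genes at 0 are named as such. Some genes of these lists are not reported here singly, though the list counts hold them. No list was tested as a set. A further 181 per-sample columns were not used.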

Additional observations from a re-analysis of the deposited data

How the results depend on the processing

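The counts of genes passing stayed within 1.5 times of 8064 under each alternative run, from 7885 with unique exon reads to 8203 without a filter on low counts, with 8156 by DESeq2, and from 7567 to 7800 with a library left out. At 2-fold or more, leaving out a library gave 2243 to 2356 genes. A test against 2-fold itself, which asks that a change exceed 2-fold, kept 1478 of 2333 genes at 2-fold or more, 770 higher and 708 lower in place of 1127 and 1206. Of 264 tested genes chosen by the naming rule, 257 kept their call in each alternative that gave a value and 0 turned direction. The 7 that lost it at least once were Hist1h4i, Hist1h1c, Cdkn2b, S100a9, Ltf, Runx2 and Ckm, which, Ckm apart, enter the counts of their lists and are not described singly. Without TMM factors the log2 fold changes would shift up by 0.11, which would turn the sign of the median of the amino acid, sugar and lactate transporter list. The groups share replicate numbers, but same-numbered libraries did not deviate together (r = 0.03, -0.05 and 0.05). These values gave no sign of pairing and cannot exclude that same-numbered libraries share an origin. With the replicate block, 7887 genes passed, 2283 of them at 2-fold or more. SC, SCR and SCRP share 1 estimate of the spread, and with SC and SCR alone 8064 genes passed, of which 7911 were the same genes in the same direction. Depth limits the weakest genes most, with a median SE of 0.72 (log2) under 1 CPM and 0.05 over 100 CPM.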
